A study of Mus musculus with 24 samples.

Results

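The genes described here encode the enzymes and pumps with which liver cells handle drugs, toxins, steroids and bilirubin, together with the receptors that sense such compounds. They were the genes whose single symbol began with Cyp1 to Cyp4 and a letter, Ugt1 or Ugt2, Sult, Ces, Aox, Fmo, Ephx, or Abcb, Abcc or Abcg and a digit, plus the receptors Ahr, Nr1i2 and Nr1i3 and the reductase Por. The rule found 129 genes among 18193 on the array, and 47 of them reached a log2 value of 5 on at least 6 arrays, among 9825 genes that did so. The RNA came from MMH-D3, a single line of immortalized hepatocytes from mouse, which had been differentiated for 14 days with 2% DMSO. A serum shock, a pulse of serum that sets the circadian clocks of cultured cells to a common phase, preceded all samples. From 12 to 58 h afterwards 1 array was made every 2 h, 24 in all, so that every array carries the line, the DMSO and the shock, and none is an unshocked control. The series was made as a circadian profile. Here the 24 arrays were also read as 6 consecutive blocks of 4 arrays, and the later block of each comparison was set against the earlier one. The arrays of a block are different times, not replicates, and nothing says that they came from separate cultures, so p-values measure the scatter between these arrays only.

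Clearance of foreign compounds is usually described in stages. Cytochrome P450 enzymes (CYP), flavin monooxygenases (FMO), aldehyde oxidases (AOX), carboxylesterases (CES) and epoxide hydrolases (EPHX) expose or add reactive groups. UDP-glucuronosyltransferases (UGT) and sulfotransferases (SULT) then attach glucuronic acid or sulfate, and ATP-binding cassette (ABC) pumps carry the products out of the cell. The aryl hydrocarbon receptor AHR and the nuclear receptors PXR (Nr1i2) and CAR (Nr1i3) switch on many of these genes, and in mouse liver the clock-driven PAR bZIP factors DBP, TEF and HLF are known regulators of several.

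Most of the 129 genes were too dim on these arrays to be described. Of the 129 genes 36.4% passed the filter, against 54.0% of all genes, and 77 of the 82 that did not averaged below log2 3. On all 24 arrays 30 genes stood at the lowest value of the table, 2.17, at which a transcript has only an upper bound. In the CYP1 to CYP3 families 9 of 43 genes were measured, and 14 of the other 34 were at 2.17 throughout. Measured were 6 of 13 CYP4 genes, 3 of 7 AOX and FMO genes, 4 of 13 CES, 2 of 4 EPHX, 6 of 8 UGT2 and 4 of 13 SULT genes. The same held for 5 of 8 ABCB, 4 of 10 ABCC and 2 of 6 ABCG transporters and 2 of 3 receptors. Among genes named here after their values were seen, the dioxin-inducible Cyp1a1 and Cyp1a2, the ethanol-metabolizing Cyp2e1, the drug-metabolizing Cyp3a11 and the bile salt pump Abcb11 were at 2.17 on every array. CAR (Nr1i3) averaged 2.18 and its target Cyp2b10 2.18, while the bilirubin conjugate pump Abcc2 averaged 2.86 and the phospholipid pump Abcb4 2.52. Fibromodulin (Fmod, 2.17), a matrix protein, matched the rule by its letters only. Por, the electron donor of microsomal P450 enzymes, had no probe set under its own symbol in the annotation used, and 3 probe sets that list several Ugt1a genes were not named. The filter was passed most narrowly by Abcg5, on 10 arrays with a mean of 4.84, and missed most narrowly by Sult2b1, on 1 array with a mean of 4.21.

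The cells kept part of a hepatocyte profile. Albumin averaged 15.97, Rbp4 14.29, Apoa1 13.55, Ttr 13.50 and Hnf4a 11.93, and 5 of 9 hepatocyte markers were measured, whereas Apoa2, Apoh and F2 averaged 2.17, 2.31 and 2.17. All 5 bile duct and progenitor markers were measured, with 15.44 for Krt19, against 0 of 6 fibroblast and stellate and 0 of 4 endothelial markers. Csf1r (5.36) and Cd68 (6.15) were measured while the leukocyte marker Ptprc averaged 2.17 and the Kupffer cell marker Clec4f was at 2.17. The summed hepatocyte markers, on the log2 scale, lay between 16.39 and 16.83 at 44 to 50 h, against 16.81 to 17.10 at 36 to 42 h, and between 16.36 and 16.51 at 52 to 58 h, against 16.90 to 17.06 at 28 to 34 h. The markers did not move as one: Alb, Ttr and Hnf4a were called lower in both comparisons (limma), while Rbp4 was called higher, by 0.25 (adjusted p = 0.0196) and 0.49 (adjusted p = 4.14e-05). Apoa1 was not called at 44 to 50 h (−0.45, adjusted p = 0.327) and was called lower at 52 to 58 h (−2.53, adjusted p = 5.34e-06). The summed bile duct and progenitor markers lay between 15.50 and 15.59 at 52 to 58 h, against 15.74 to 15.90 at 28 to 34 h. Of this list Krt19 and Epcam were called lower there (−0.29 and −0.91, adjusted p = 0.00139 and 0.00479). Sox9 was called higher (0.32, adjusted p = 0.0281), and Krt7 (−0.25, adjusted p = 0.0976) and Afp (0.19, adjusted p = 0.175) were not called. The summed macrophage markers lay between 6.58 and 6.68 at 52 to 58 h, against 6.68 to 7.67 at 28 to 34 h. There Cd68 was called lower (−0.94, adjusted p = 0.0121) and Csf1r was not called (−0.01, adjusted p = 0.977). The part of these marker changes in the results below was not tested, and in a culture fewer expressing cells and less RNA per cell cannot be told apart. The array medians over kept probe sets ran from 8.96 at 40 h to 9.14 at 46 h. The 40 h array stood apart, with 900 of the 9825 genes lower by at least 0.5 than at 38 h. Without it 12 of the 47 genes were called lower and 3 higher at 44 to 50 h than at 36 to 42 h, the same counts as with it, but Ces2g was lost (adjusted p = 0.0562) and Abcb10 gained (adjusted p = 0.0376).

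Across the 47 measured genes, lower values dominated late in the series. At 52 to 58 h, 25 genes were lower than 24 h earlier and 4 were higher (limma, adjusted p under 0.05), against 15.3% and 21.0% of all genes. The median difference was −0.40 for the 47 genes and 0.03 for all genes. On all 4 later arrays 26 of the 47 lay below all 4 earlier ones and 6 above, against 18.1% and 23.6% of all genes. Between the neighbouring blocks of 44 to 50 h and 36 to 42 h, 12 fell and 3 rose, against 12.7% and 20.5% of all genes, with medians of −0.16 and 0.04. There 7 genes lay below and 2 above on all 4 arrays, against 8.89% and 15.5%. In the earlier comparison over 24 h, 36 to 42 h with 12 to 18 h, 10 fell and 6 rose, against 12.1% and 14.3% of all genes, so that here both shares of the 47 were closer to the background. The median was −0.16 for the 47 genes and 0.00 for all genes, and 10 lay below and 6 above on all 4 arrays, against 8.96% and 12.5%. A straight line through all 24 arrays fell for 23 genes and rose for 5, against 16.4% and 26.3% of all genes.

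**Figure D1:**
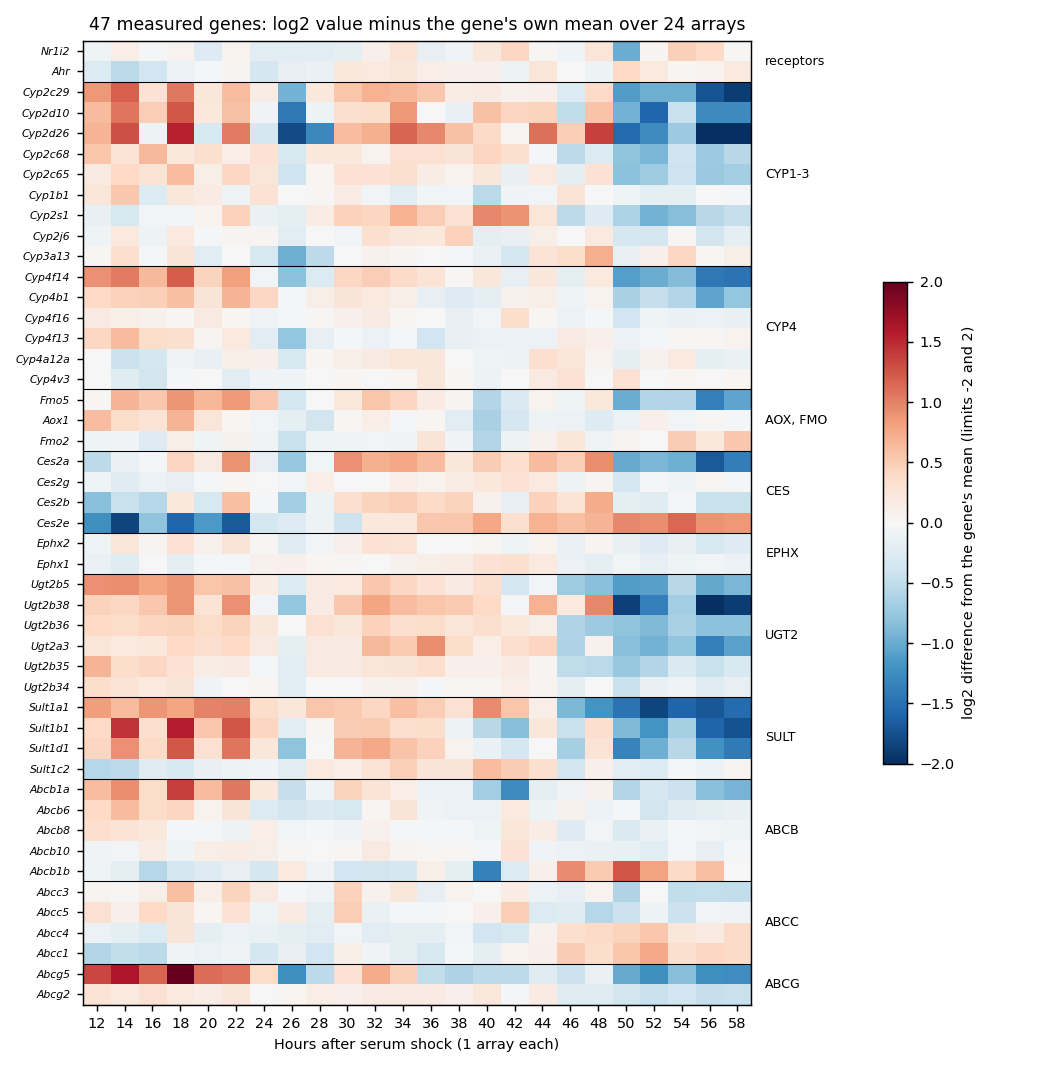
Log2 value of each of the 47 measured genes minus that gene's own mean over the 24 arrays, by hours after serum shock (columns, 1 array each) and by role (rows); blue is below and red above the gene's mean. The 26 h column and the columns from 50 h on are blue for many CYP2, UGT2 and SULT genes, while Abcc1, Abcc4, Abcb1b and Ces2e are red late.

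**Figure D2:**
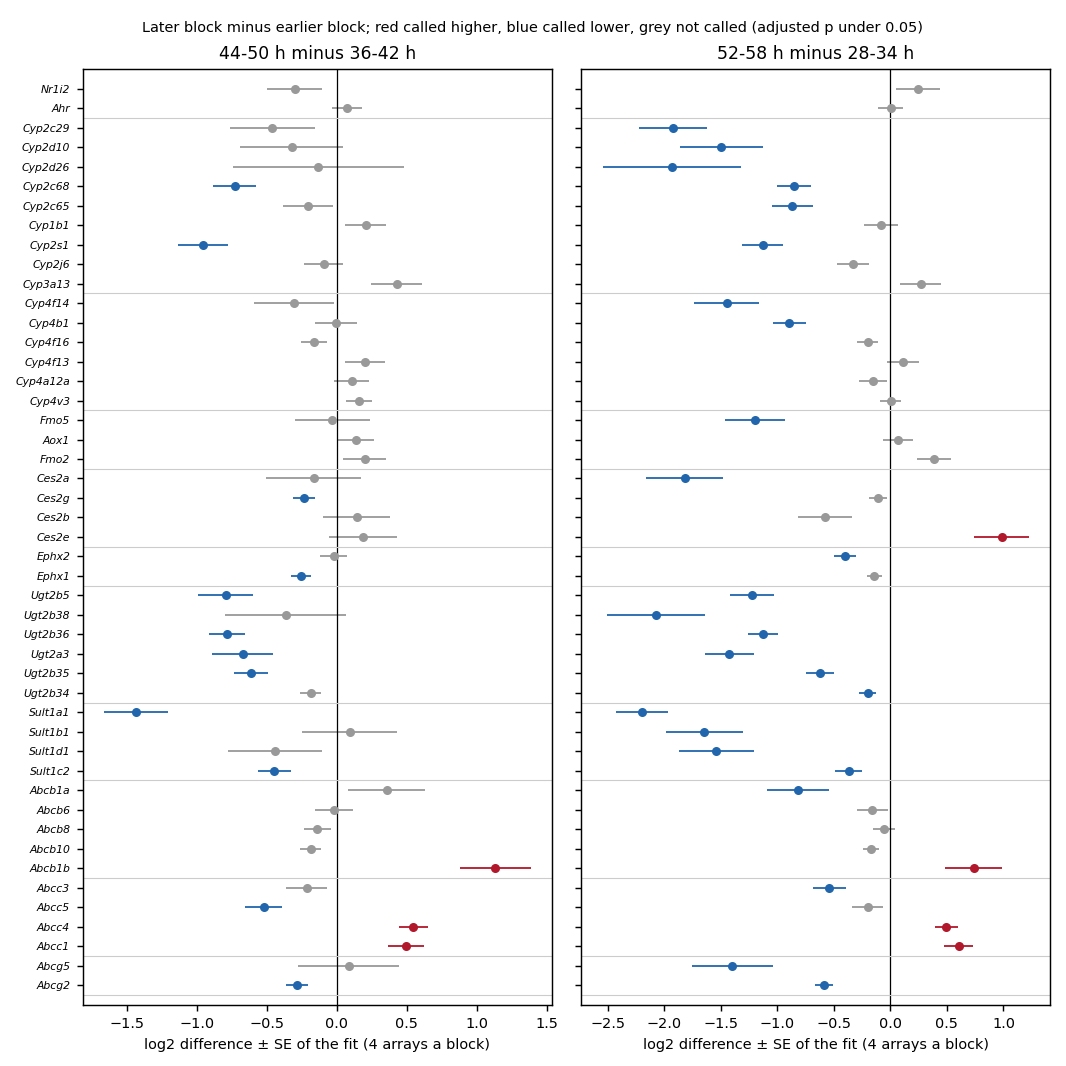
Log2 difference ± SE of the fit for each measured gene between 44 to 50 h and 36 to 42 h (left) and between 52 to 58 h and 28 to 34 h (right), with 4 arrays in a block; red genes were called higher, blue genes lower and grey genes not called. All 6 UGT2 and all 4 SULT genes are blue on the right.

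Of the xenobiotic receptors, Ahr rose early and was not called in the later comparisons, and Nr1i2 was dim and was not called. Means over the 24 arrays were 11.01 for Ahr and 6.22 for Nr1i2. Ahr, the receptor for dioxins and many plant compounds, had 11.15, 11.11, 11.11 and 10.91 at 36 to 42 h, against 10.73, 10.48, 10.62 and 10.89 at 12 to 18 h. The later values all lay above the earlier ones, by 0.39 ± 0.11 (SE, adjusted p = 0.0112). This call was lost without the 14 h array (adjusted p = 0.0526). Ahr differed by 0.00 ± 0.11 between 52 to 58 h and 28 to 34 h (adjusted p = 0.996) and by 0.07 ± 0.11 between 44 to 50 h and 36 to 42 h (adjusted p = 0.638). Its line rose by 0.45 ± 0.13 over the 46 h (adjusted p = 0.00753) but by 0.21 without 12 to 18 h (adjusted p = 0.227), and its other kept probe set rose by 0.51. Nr1i2, the receptor for steroids and many drugs, had its lowest value at 50 h (5.23), its highest at 54 h (6.70) and a median of 6.25. Its difference of −0.30 ± 0.20 between 44 to 50 h and 36 to 42 h was not called (adjusted p = 0.253), nor was its line of 0.29 ± 0.21 (adjusted p = 0.276). Without the 50 h array that line was 0.41 and was called (adjusted p = 0.0285).

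Among the CYP1 to CYP3 genes, 6 of the 9 measured were lower at 52 to 58 h than at 28 to 34 h and none was higher, against 15.3% and 21.0% of all genes. They were Cyp2c29, Cyp2c65, Cyp2c68, Cyp2d10, Cyp2d26 and Cyp2s1, and the CYP2 family to which they belong oxidizes drugs, steroids and fatty acids. Over all arrays the means were 5.97 for Cyp1b1, 10.41 for Cyp2c29, 12.56 for Cyp2c65, 8.90 for Cyp2c68, 6.10 for Cyp2d10, 8.45 for Cyp2d26, 9.85 for Cyp2j6, 11.35 for Cyp2s1 and 11.11 for Cyp3a13. Cyp2c29 had 9.42, 9.43, 8.68 and 8.51 at 52 to 58 h, against 10.61, 10.96, 11.09 and 11.06 at 28 to 34 h. The blocks did not overlap, and the difference of −1.92 ± 0.30 is a fold of 0.264 (adjusted p = 3.97e-05). Cyp2d26 had 7.19, 7.73, 6.06 and 6.26 at 52 to 58 h, against 7.16, 9.06, 9.16 and 9.61 at 28 to 34 h, so its blocks overlapped through the low 28 h array. Its fall of −1.94 ± 0.61 (adjusted p = 0.0169) was lost without any 1 of 3 arrays, with a highest adjusted p of 0.0621 without 34 h. Cyp2d10 (−1.50 ± 0.37, adjusted p = 0.00304) ended at 4.83 at 58 h, near the filter, so that the size of its fall is less sure.

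Cyp2s1 and Cyp2c68 were the 2 genes of this group called lower between 44 to 50 h and 36 to 42 h. Cyp2s1, a P450 enzyme known from epithelia outside the liver as well, had 11.60, 10.83, 11.10 and 10.72 at 44 to 50 h, against 11.84, 11.66, 12.32 and 12.25 at 36 to 42 h. All later values were below all earlier ones, and the mean fell by 0.96 on the log2 scale (SE 0.18, adjusted p = 0.000321). Before that Cyp2s1 had risen, by 0.81 ± 0.18 at 36 to 42 h over 12 to 18 h (adjusted p = 0.00197), so a straight line over the 24 arrays gave only −0.30 ± 0.33 (adjusted p = 0.492). Cyp2c68 had 8.88, 8.38, 8.63 and 8.09 at 44 to 50 h, against 9.20, 9.15, 9.34 and 9.22 at 36 to 42 h. It fell by 0.73 (SE 0.15, adjusted p = 0.00082), with no overlap. Cyp2c65 and Cyp2c29 differed by −0.21 ± 0.18 and −0.46 ± 0.30 in that comparison and were not called (adjusted p = 0.4 and 0.257). Both had 44 and 48 h values close to those of 36 to 42 h, with 10.51 and 10.79 for Cyp2c29. At 46 h both were lower, with 12.39 for Cyp2c65 and 10.13 for Cyp2c29, and at 50 h lower still, with 11.74 and 9.30. Their lines over the series fell by 0.82 (SE 0.20) and 1.83 (SE 0.39), with adjusted p = 0.0019 and 0.000609. Cyp3a13, the only measured member of the CYP3A family of drug oxidases, was 0.43 ± 0.18 higher at 44 to 50 h than at 36 to 42 h (adjusted p = 0.0786), and was called without the 50 h array (0.58, adjusted p = 0.0216) or the 26 h array (adjusted p = 0.0392). The estrogen hydroxylase Cyp1b1 ranged from 5.44 to 6.50 and Cyp2j6 from 9.49 to 10.32, and neither was called in any of the 5 tests. Another probe set of Cyp2j6 had a falling line (−0.47, adjusted p = 0.0201), where the one used here gave −0.16.

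The CYP4 family, which hydroxylates fatty acids and eicosanoids at or near the chain end, held genes that fell, genes that were not called and 1 gene, Cyp4v3, with a line called rising. The mean log2 level was 9.21 for Cyp4a12a, 11.81 for Cyp4b1, 6.65 for Cyp4f13, 9.46 for Cyp4f14, 8.68 for Cyp4f16 and 6.71 for Cyp4v3. Cyp4b1 had 11.35, 11.22, 10.76 and 11.03 at 52 to 58 h, against 11.93, 12.07, 12.00 and 11.93 at 28 to 34 h. Its blocks did not overlap, and it fell by 0.89 (SE 0.15, adjusted p = 6.87e-05). Cyp4f14, which in mice degrades leukotriene B4, had 8.46, 8.59, 8.03 and 7.98 at 52 to 58 h, against 9.19, 9.88, 9.95 and 9.83 at 28 to 34 h, and fell by 1.45 (SE 0.29, adjusted p = 0.000461). Both were already lower at 36 to 42 h than at 12 to 18 h, by −0.61 ± 0.15 and −0.86 ± 0.29 (adjusted p = 0.00387 and 0.0311), and the call for Cyp4f14 was lost without any 1 of 5 arrays (highest adjusted p = 0.0849, without 42 h). Cyp4f13 was also lower at 36 to 42 h than at 12 to 18 h (−0.62 ± 0.14, adjusted p = 0.00268), and its difference at 44 to 50 h over 36 to 42 h was 0.20 ± 0.14 (adjusted p = 0.296). None of the 6 CYP4 genes was called between 44 to 50 h and 36 to 42 h, where Cyp4f16 had −0.16 ± 0.09 (adjusted p = 0.2). After centring each array on its median Cyp4f16 was called there, at −0.23 (adjusted p = 0.0478). The lipid hydroxylase Cyp4a12a ranged from 8.78 to 9.55 without a call. Cyp4v3, a fatty acid hydroxylase, had a rising line of 0.27 ± 0.11 (adjusted p = 0.0483), lost without any 1 of 16 arrays and absent from its other probe set (0.03, adjusted p = 0.822).

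Of the flavin and aldehyde oxidizing enzymes, Fmo5 was lower at 52 to 58 h than at 28 to 34 h, and Aox1 at 36 to 42 h than at 12 to 18 h. Mean levels were 7.69 for Aox1, 5.60 for Fmo2 and 8.75 for Fmo5. Fmo5 had 8.16, 8.16, 7.39 and 7.70 at 52 to 58 h, against 8.74, 8.96, 9.31 and 9.18 at 28 to 34 h. All later values were lower, with a difference of −1.20 ± 0.27 (adjusted p = 0.00137), and its line fell by 1.48 (SE 0.27, adjusted p = 0.000143). At 36 to 42 h against 12 to 18 h Fmo5 differed by −0.70 ± 0.27 (adjusted p = 0.06), which passed with arrays paired 24 h apart (adjusted p = 0.0368), and its 2 other kept probe sets were called lower there (−0.92 and −1.13, adjusted p = 0.0348 and 0.019). Aox1, an aldehyde oxidase, had 7.72, 7.48, 7.04 and 7.35 at 36 to 42 h, against 8.30, 8.05, 7.96 and 8.37 at 12 to 18 h, a difference of −0.77 (SE 0.13, adjusted p = 0.000127). From 52 to 58 h it lay between 7.63 and 7.79 and differed by 0.07 ± 0.13 from 28 to 34 h (adjusted p = 0.734). Its falling line (−0.54 ± 0.18, adjusted p = 0.0213) was lost without the 12 h array (adjusted p = 0.0629). Fmo2 was dim, between 5.02 and 6.13, and 0.39 ± 0.15 higher at 52 to 58 h than at 28 to 34 h without passing the test (adjusted p = 0.0557). It passed without the 52 h array (0.49, adjusted p = 0.0221) and without any 1 of the 26, 36 and 40 h arrays.

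The 4 measured carboxylesterases all belong to the Ces2 cluster, whose enzymes cleave esters of drugs and lipids, and they took different courses. Their means over the series were 10.39 for Ces2a, 9.42 for Ces2b, 7.38 for Ces2e and 12.37 for Ces2g. Ces2e had 7.92, 7.92, 8.15 and 7.70 at 36 to 42 h, against 6.15, 5.53, 6.57 and 5.79 at 12 to 18 h. The gap of 1.91 ± 0.24 is a fold of 3.77 (adjusted p = 4.47e-06). At 52 to 58 h it had 8.31, 8.53, 8.28 and 8.25, against 7.28, 6.96, 7.59 and 7.59 at 28 to 34 h, a rise of 0.99 ± 0.24 (adjusted p = 0.00298). Ces2a moved the other way: it had 9.48, 9.40, 8.70 and 9.00 at 52 to 58 h, against 10.32, 11.29, 11.09 and 11.17 at 28 to 34 h, and fell by 1.82 (SE 0.34, adjusted p = 0.000255). Its line was not called (−0.62 ± 0.49, adjusted p = 0.329), and the 12 h array was low too, at 9.87. Ces2g rose by 0.33 ± 0.08 at 36 to 42 h over 12 to 18 h (adjusted p = 0.00316) and fell by 0.23 (SE 0.08, adjusted p = 0.025) at 44 to 50 h, a call lost without any 1 of 4 arrays (highest adjusted p = 0.128, without 50 h). Ces2b was lowest at 12 h (8.59) and highest at 48 h (10.17), and no test called it. It was 0.60 ± 0.24 higher at 36 to 42 h than at 12 to 18 h (adjusted p = 0.0722), which passed without 18 h (0.81, adjusted p = 0.0155), and differed by −0.58 ± 0.24 at 52 to 58 h against 28 to 34 h (adjusted p = 0.0652), which passed without 28 h (−0.71, adjusted p = 0.0373).

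Changes of the epoxide hydrolases were small. The means were 13.65 for Ephx1 and 11.69 for Ephx2. Ephx1, the microsomal enzyme that detoxifies epoxides made by P450 enzymes, had 13.77, 13.80, 13.93 and 13.98 at 36 to 42 h, against 13.52, 13.40, 13.66 and 13.45 at 12 to 18 h, and rose by 0.36 ± 0.07 (adjusted p = 0.000493). At 44 to 50 h it had 13.85, 13.53, 13.47 and 13.60 and was lower than at 36 to 42 h (−0.26 ± 0.07, adjusted p = 0.0067). Ephx2, the soluble enzyme that hydrolyses fatty acid epoxides, fell by 0.40 (SE 0.10, adjusted p = 0.00243) at 52 to 58 h against 28 to 34 h. Its falling line of −0.32 ± 0.11 (adjusted p = 0.0241) was lost without 56 or 58 h (highest adjusted p = 0.0636).

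All 6 measured UGT2 genes were lower at 52 to 58 h than at 28 to 34 h, against 15.3% of all genes. All 6 had a falling line, against 16.4%, and 4 were lower at 44 to 50 h than at 36 to 42 h, against 12.7%. UGT2 enzymes attach glucuronic acid to steroids, bile acids and drugs. The genes lie together on chromosome 5 and are close relatives, so that signals from one may reach the probes of another. The start regions of Ugt2b5, Ugt2b36 and Ugt2b38 are printed because these 3 genes share a stretch of promoter. All 3 were lower by at least 0.5 at 46 h than at 44 h, by −0.65 for Ugt2b5, −0.72 for Ugt2b36 and −0.51 for Ugt2b38. Ugt2a3 (−1.05) and Ugt2b35 (−0.57), whose windows do not hold this stretch, dropped there too, so the drop was not particular to the 3. Ugt2b38 was also lower by at least 0.5 at 26 and 50 h. Each run holds 250 bases before and 50 bases after the gene start, from RefSeq on GRCm38.p6, all on the minus strand, at chr5:87140291-87140590, chr5:87092506-87092805 and chr5:87424154-87424453, and the capitals mark the 22 bases common to all 3.
Ugt2b5: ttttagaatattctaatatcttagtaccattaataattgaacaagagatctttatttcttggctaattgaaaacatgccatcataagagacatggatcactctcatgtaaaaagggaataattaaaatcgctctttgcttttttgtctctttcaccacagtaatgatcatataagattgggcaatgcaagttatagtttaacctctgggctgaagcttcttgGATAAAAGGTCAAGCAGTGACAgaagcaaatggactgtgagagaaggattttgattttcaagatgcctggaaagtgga
Ugt2b36: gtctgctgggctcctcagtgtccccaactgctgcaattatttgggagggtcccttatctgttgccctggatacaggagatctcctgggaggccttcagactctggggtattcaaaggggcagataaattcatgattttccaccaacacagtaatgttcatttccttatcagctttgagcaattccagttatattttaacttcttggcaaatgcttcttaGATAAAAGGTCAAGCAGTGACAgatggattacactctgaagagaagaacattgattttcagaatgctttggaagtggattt
Ugt2b38: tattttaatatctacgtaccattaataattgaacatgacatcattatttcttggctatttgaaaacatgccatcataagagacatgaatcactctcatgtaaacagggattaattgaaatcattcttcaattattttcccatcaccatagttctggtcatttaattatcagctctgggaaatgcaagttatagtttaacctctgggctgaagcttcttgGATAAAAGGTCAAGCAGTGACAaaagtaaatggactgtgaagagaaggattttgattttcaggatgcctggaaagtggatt
The capitals end 7 bases before the gene start in Ugt2b5 and 10 bases before it in Ugt2b36 and Ugt2b38. Of 27025 promoters, 4 hold this run (0.0148%), the other being that of Ugt2b37, which was not measured (mean 2.23). Ugt2b38 and Ugt2b5 share a longer run of 62 bases.

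Ugt2b36 was lower from 46 h on. Mean levels of the family were 7.46 for Ugt2a3, 10.24 for Ugt2b5, 14.41 for Ugt2b34, 11.63 for Ugt2b35, 11.27 for Ugt2b36 and 7.89 for Ugt2b38. Ugt2b36 had 11.39, 10.67, 10.55 and 10.47 at 44 to 50 h, against 11.64, 11.51, 11.60 and 11.48 at 36 to 42 h, and stayed between 10.39 and 10.63 from 52 to 58 h. The blocks did not overlap and differed by −0.78 ± 0.13 (adjusted p = 0.000104), and 52 to 58 h differed from 28 to 34 h by −1.13 ± 0.13 (adjusted p = 7.79e-07). Ugt2b35 took the same kind of step, with 11.69, 11.12, 11.10 and 10.88 at 44 to 50 h, against 11.97, 11.74, 11.74 and 11.79 at 36 to 42 h (−0.61 ± 0.12, adjusted p = 0.000692). Ugt2b5 had 10.19, 9.53, 9.40 and 9.12 at 44 to 50 h, against 10.52, 10.41, 10.57 and 9.91 at 36 to 42 h. Its blocks overlapped at 44 and 42 h, and it fell by 0.79 (SE 0.19, adjusted p = 0.00356). It had been lower already at 36 to 42 h than at 12 to 18 h (−0.77 ± 0.19, adjusted p = 0.00569), and its line of −1.81 ± 0.16 had the smallest p of the 47 genes (adjusted p = 1.43e-08). Ugt2b38, in contrast, had 8.59, 8.09, 8.86 and 6.03 at 44 to 50 h, so that 3 of the 4 arrays lay within the range of 7.86 to 8.45 at 36 to 42 h or above it, and the difference of −0.37 ± 0.43 was not called (adjusted p = 0.548). At 52 to 58 h it had 6.53, 7.20, 5.65 and 5.99, against 8.05, 8.42, 8.67 and 8.51 at 28 to 34 h, a difference of −2.07 (SE 0.43, adjusted p = 0.000762). Its line (−1.52 ± 0.52, adjusted p = 0.0214) was lost without 56 or 58 h. Ugt2a3 fell by 0.67 (SE 0.22, adjusted p = 0.0209) at 44 to 50 h, a call lost without any 1 of 3 arrays (highest adjusted p = 0.101, without 50 h), and by 1.42 (SE 0.22, adjusted p = 2.47e-05) at 52 to 58 h against 28 to 34 h. Ugt2b34 spanned only 13.97 to 14.76. Its difference of −0.20 ± 0.08 at 52 to 58 h against 28 to 34 h (adjusted p = 0.0466) was lost without any 1 of 14 arrays, and that of −0.22 ± 0.08 at 36 to 42 h against 12 to 18 h (adjusted p = 0.0364) without any 1 of 6. The other kept probe set of Ugt2b34 was called lower in both (−0.245 and −0.225, adjusted p = 0.01 and 0.0236). It was also called lower at 44 to 50 h against 36 to 42 h (−0.223, adjusted p = 0.0202).

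Sult1a1 showed the largest fall among the 47 genes between 52 to 58 h and 28 to 34 h. The sulfotransferases averaged 13.24 for Sult1a1, 7.23 for Sult1b1, 12.73 for Sult1c2 and 10.19 for Sult1d1. Sult1a1, a phenol sulfotransferase, had 13.37, 12.33, 12.05 and 11.76 at 44 to 50 h, against 13.73, 13.55, 14.18 and 13.79 at 36 to 42 h. Every later value was lower, and the difference of −1.43 ± 0.23 is a fold of 0.37 (adjusted p = 6.3e-05). At 52 to 58 h it had 11.40, 11.63, 11.53 and 11.69, against 13.79, 13.77, 13.65 and 13.84 at 28 to 34 h, a fold of 0.218 (−2.20 ± 0.23, adjusted p = 1.57e-07). Its difference between 36 to 42 h and 12 to 18 h was −0.21 ± 0.23 and was not called (adjusted p = 0.538). Sult1c2 had 12.99, 12.99, 13.34 and 13.24 at 36 to 42 h, against 12.16, 12.22, 12.49 and 12.43 at 12 to 18 h, and rose by 0.82 ± 0.12 (adjusted p = 2.29e-05). At 44 to 50 h, with 13.05, 12.37, 12.83 and 12.53, it was lower again (−0.45 ± 0.12, adjusted p = 0.00598), and at 52 to 58 h it was below 28 to 34 h (−0.37 ± 0.12, adjusted p = 0.0185), a call lost without 34 or 52 h (highest adjusted p = 0.074). Sult1b1, which sulfates thyroid hormones, and Sult1d1, which sulfates catecholamines in mice, were both lower at the end, and Sult1b1 was lower already at 36 to 42 h than at 12 to 18 h (−1.22 ± 0.34, adjusted p = 0.011). Sult1b1 had 6.05, 6.56, 5.63 and 5.50 at 52 to 58 h, against 7.27, 7.75, 7.76 and 7.56 at 28 to 34 h (−1.65 ± 0.34, adjusted p = 0.00067). Sult1d1 had 9.21, 9.64, 8.98 and 8.78 at 52 to 58 h, against 10.18, 10.87, 10.95 and 10.77 at 28 to 34 h (−1.54 ± 0.33, adjusted p = 0.00108). Neither pair of blocks overlapped. Between 44 to 50 h and 36 to 42 h Sult1d1 differed by −0.44 ± 0.33 (adjusted p = 0.326) and Sult1b1 by 0.09 ± 0.34 (adjusted p = 0.859).

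**Figure D3:**
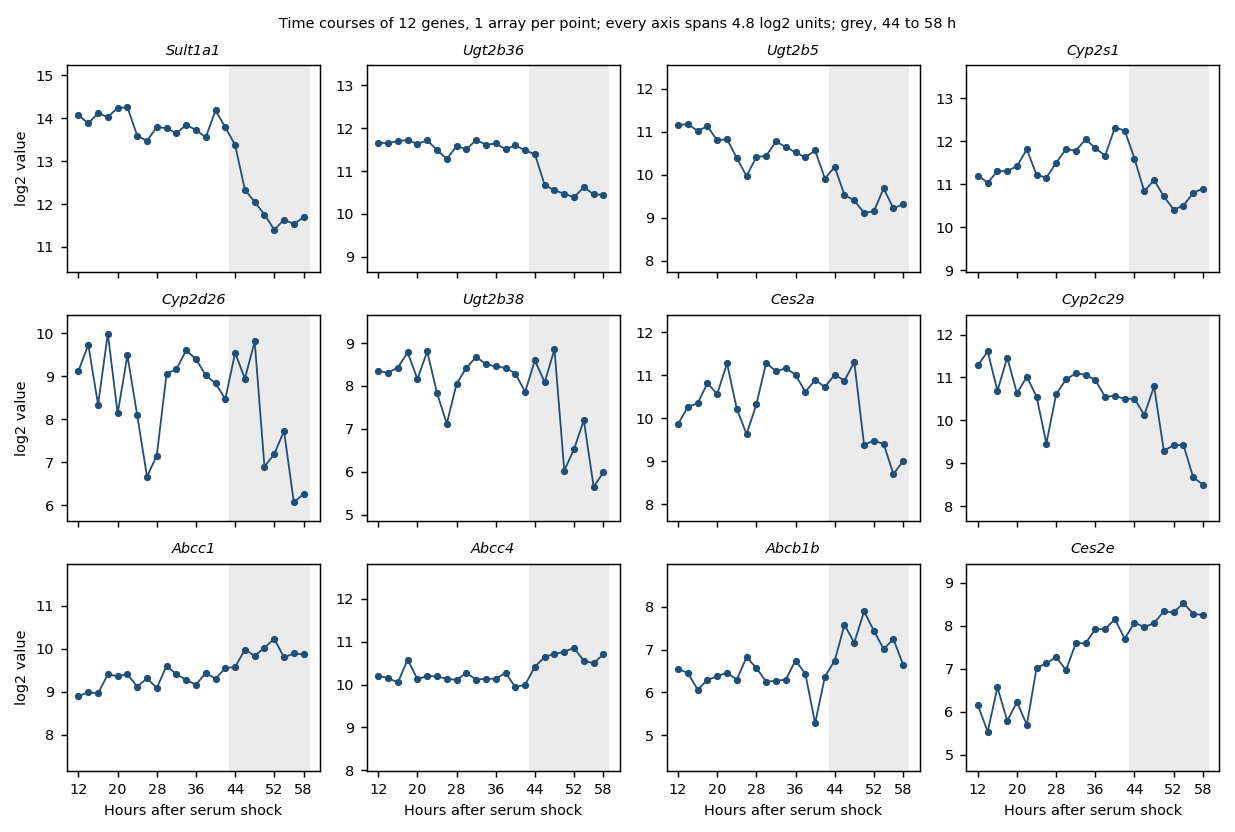
Log2 value of 12 genes against hours after serum shock, 1 array per point, with 44 to 58 h shaded and the same height of scale in every panel. Sult1a1, Ugt2b36, Ugt2b5 and Cyp2s1 drop at 46 h and stay low, and Cyp2s1 drops at 44 h and Ugt2b5 at 42 h as well. Cyp2d26, Ugt2b38, Ces2a and Cyp2c29 dip at 26 h and drop at 50 h, and Abcc1, Abcc4, Abcb1b and Ces2e are higher late than early.

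Of the 11 measured ABC transporters, 3 were higher and 4 lower at 52 to 58 h than at 28 to 34 h, against 21.0% and 15.3% of all genes, so that the share called higher was near the background. The same 3, Abcc1, Abcc4 and Abcb1b, were higher at 44 to 50 h than at 36 to 42 h, and Abcc5 and Abcg2 were lower there, against 20.5% and 12.7% of all genes. Averages over the 24 arrays were 9.48 for Abcc1, 12.72 for Abcc3, 10.32 for Abcc4, 10.42 for Abcc5, 12.50 for Abcg2 and 4.84 for Abcg5. Abcc4 (MRP4), which exports cyclic nucleotides and conjugates across the basolateral membrane, had 10.42, 10.64, 10.71 and 10.76 at 44 to 50 h, against 10.13, 10.27, 9.94 and 10.00 at 36 to 42 h. All later values were higher, by 0.55 ± 0.10, a fold of 1.46 (adjusted p = 0.000292). Abcc1 (MRP1), an exporter of glutathione conjugates, had 9.58, 9.98, 9.84 and 10.03 at 44 to 50 h, against 9.16, 9.44, 9.30 and 9.56 at 36 to 42 h, and rose by 0.49 ± 0.13 (adjusted p = 0.00582). Its other kept probe set rose by 0.60 (adjusted p = 0.0175). At 52 to 58 h against 28 to 34 h Abcc4 rose by 0.49 ± 0.10 and Abcc1 by 0.60 ± 0.13 (adjusted p = 0.000608 and 0.000893). Over the series the line of Abcc1 rose by 0.96 ± 0.13 (adjusted p = 3.37e-06) and that of Abcc4 by 0.49 ± 0.15 (adjusted p = 0.011). The line of Abcc4 rested on the late arrays, since without 44 to 58 h it was −0.26 (adjusted p = 0.287).

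Abcb1a and Abcb1b, the P-glycoprotein genes of the mouse, export many drugs, and were called in opposite directions at 52 to 58 h against 28 to 34 h only. In the other 2 comparisons of blocks their differences had the same sign, and 1 gene of the pair was called in each. Average levels of the ABCB genes were 11.33 for Abcb1a, 6.64 for Abcb1b, 6.08 for Abcb6, 8.60 for Abcb8 and 8.79 for Abcb10. Abcb1b had 6.74, 7.57, 7.16 and 7.89 at 44 to 50 h, against 6.74, 6.44, 5.28 and 6.37 at 36 to 42 h. The blocks met at the 44 and 36 h arrays, and the rise of 1.13 ± 0.25 is a fold of 2.19 (adjusted p = 0.00163). At 52 to 58 h against 28 to 34 h Abcb1b was higher by 0.74 ± 0.25 (adjusted p = 0.027), a call lost without any 1 of 5 arrays (highest adjusted p = 0.0865, without 52 h). Its line of 0.72 ± 0.30 was not called (adjusted p = 0.0554), and was called without 12, 14 or 40 h (0.91, 0.84 and 0.92). Abcb1a had 11.22, 11.21, 10.63 and 10.08 at 36 to 42 h, against 11.96, 12.26, 11.70 and 12.72 at 12 to 18 h, and fell by 1.37 (SE 0.28, adjusted p = 0.000824), without overlap. It was 0.36 ± 0.28 higher at 44 to 50 h than at 36 to 42 h, which was not called (adjusted p = 0.341), and lower at 52 to 58 h than at 28 to 34 h (−0.82 ± 0.28, adjusted p = 0.0245), a call lost without any 1 of 4 arrays (highest adjusted p = 0.0756, without 58 h). The other kept probe set of Abcb1a was not called in that last comparison (−0.66, adjusted p = 0.0526). Sequence shared by these 2 genes could let one reach the probes of the other, and this was not tested.

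The remaining transporters fell or did not pass. Abcg2 (BCRP), which exports sulfated conjugates and urate, had 12.05, 12.11, 12.03 and 12.06 at 52 to 58 h, against 12.63, 12.61, 12.67 and 12.68 at 28 to 34 h. The values were tight within each block, and the difference of −0.59 ± 0.08 (adjusted p = 4.48e-06) followed one of −0.29 ± 0.08 at 44 to 50 h against 36 to 42 h (adjusted p = 0.00719). Abcg5, which pumps sterols as the partner of Abcg8, had 6.18, 6.46, 6.01 and 6.88 at 12 to 18 h, 4.34, 4.23, 4.32 and 4.32 at 36 to 42 h, and 3.60, 3.98, 3.60 and 3.59 at 52 to 58 h. The difference of −2.08 ± 0.36 between 36 to 42 h and 12 to 18 h was the largest fall of the 47 genes there (adjusted p = 0.000185), but values below 5 are dim and its size is uncertain. All 10 arrays on which Abcg5 reached 5 lay between 12 and 34 h. It passed the filter through these earlier arrays only, which favours a fall, and it is included in the counts of lower genes above. Abcc3 (MRP3), a basolateral pump for glucuronides, had 12.72, 12.23, 12.26 and 12.24 at 52 to 58 h, against 12.65, 13.19, 12.81 and 12.95 at 28 to 34 h, and fell by 0.54 (SE 0.15, adjusted p = 0.00689), with overlap at 52 and 28 h. Abcc5 (MRP5) had 10.14, 10.18, 9.86 and 10.00 at 44 to 50 h, against 10.41, 10.42, 10.53 and 10.92 at 36 to 42 h (−0.52 ± 0.14, adjusted p = 0.00515), and of its 6 other kept probe sets 5 were below 0, 2 of them called (−0.39 each, adjusted p = 0.00493 and 0.0337), and 1 was at 0.17 (adjusted p = 0.438). Of the transporters of mitochondria and other organelles, Abcb6 was lower at 36 to 42 h than at 12 to 18 h (−0.48 ± 0.14, adjusted p = 0.0136), lost without 14 h (adjusted p = 0.0536), and its line of −0.33 ± 0.14 was not called (adjusted p = 0.0704) but was called without 24, 26 or 50 h (−0.37, −0.38 and −0.36). Abcb10 (8.58 to 9.07) and Abcb8 (8.31 to 8.93) were not called in any test. The difference of Abcb10 at 44 to 50 h against 36 to 42 h, −0.19 ± 0.07 (adjusted p = 0.0586), was called without 40 h (−0.22, adjusted p = 0.0376) or 16 h (adjusted p = 0.0483) and after centring each array on its median (−0.25, adjusted p = 0.00676).

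Falls between neighbouring arrays were spread unevenly over the series, with the most genes lower at 50 h and next at 26 h. Counting genes that differed by at least 0.5 on the log2 scale from the array 2 h earlier, with 1 array on each side and so no test, 16 of the 47 (34.0%) were lower at 26 h, against 2.06% of all genes. At 46 h 12 genes (25.5%) were lower, against 3.45%, and at 50 h 20 genes (42.6%) were lower, against 4.48%. After 26 h the values came back, with 10 genes higher at 28 h and 10 at 30 h, against 1.93% and 4.69% of all genes. After 50 h 2 genes were higher at 52 h and 7 at 54 h, against 3.6% and 2.28% of all genes, and at 56 h 10 genes were lower again, against 1.49%. Between 14 and 24 h the arrays alternated, with 7 genes lower at 16 h (2.15% of all genes) and 10 higher at 18 h (4.72%). Then 10 were lower at 20 h (2.66%), 6 higher at 22 h (1.36%) and 13 lower at 24 h (3.02%).

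Most genes that were lower by at least 0.5 at 26 h were also lower by that much at 50 h. Another 6 genes passed this bound at 46 h but at neither of these. Of the 16 genes lower at 26 h, 15 were also lower at 50 h, which is 93.8% of the first list and 75.0% of the second, against 50.5% and 23.2% over all genes. Cyp2d26 had 6.66 at 26 h, against 8.09 at 24 h, and 6.90 at 50 h, against 9.81 at 48 h. Ugt2b38 had 7.12 at 26 h, against 7.83 at 24 h, and 6.03 at 50 h, against 8.86 at 48 h. Ces2a had 9.63 at 26 h, against 10.22 at 24 h, and 9.38 at 50 h, against 11.31 at 48 h, and Cyp2c29 had 9.46 against 10.55 and 9.30 against 10.79 on the same arrays. Of the 12 genes lower at 46 h, 6 were also lower at 50 h, an overlap that was not counted over all genes. The other 6 were Cyp2s1, Sult1a1, Sult1c2, Ugt2b35, Ugt2b36 and Ugt2b5, and none of these was lower by 0.5 at 26 h. In this order they differed by −0.06, −0.12, −0.14, −0.20, −0.21 and −0.41 at 26 h. At 50 h they differed by −0.38, −0.29, −0.30, −0.22, −0.08 and −0.29, so the split depends on the bound of 0.5. Sult1a1 had 12.33 at 46 h, against 13.37 at 44 h, Cyp2s1 10.83, against 11.60, and Ugt2b36 10.67, against 11.39. Among markers, Apoa1 differed from the array before by −0.69 at 26 h, −0.27 at 46 h and −1.81 at 50 h, and Epcam by −0.77, −0.09 and −1.12. Ttr differed by −0.35, −0.70 and −0.24 on the same arrays, Alb by −0.01, −0.36 and −0.19, and Cd68 by 0.50, −1.01 and 0.03. Other markers went the other way on some of them, with differences at 26, 46 and 50 h of −0.22, 0.21 and −0.26 for Rbp4, 0.02, 0.33 and −0.13 for Sox9, and 0.10, 0.11 and 0.34 for Afp. Krt7 differed by 0.17, −0.37 and −0.11, Krt19 by −0.07, −0.16 and −0.08, Hnf4a by −0.14, −0.31 and 0.01, and Csf1r by −0.02, 0.00 and 0.00. The part of these marker changes, or of the arrays themselves, in the drops was not tested.

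**Figure D4:**
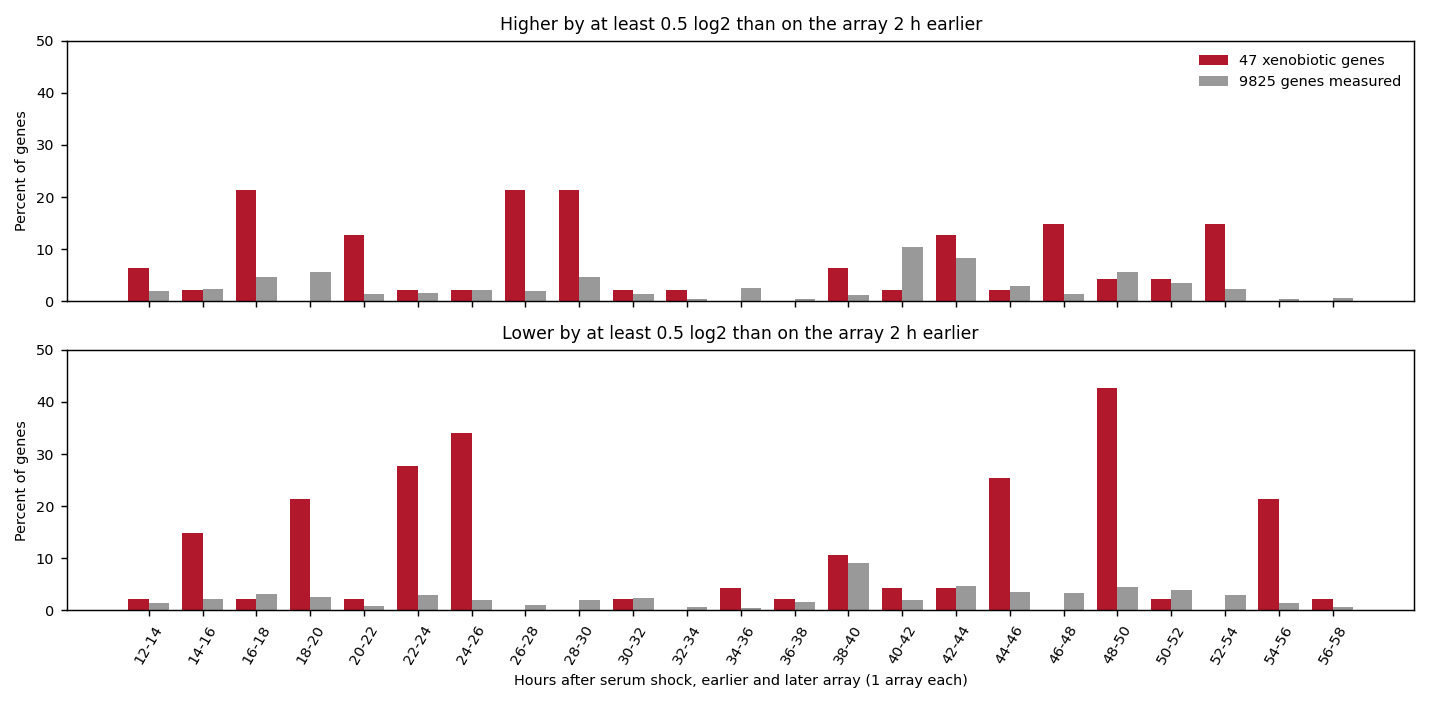
Percent of the 47 genes (red) and of the 9825 genes measured (grey) that were at least 0.5 log2 higher (top) or lower (bottom) than on the array 2 h earlier, with 1 array on each side. The red bars for lower genes reach 34.0% at 26 h and 42.6% at 50 h, where the grey bars are at 2.06% and 4.48%.

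A 24 h rhythm was called for 2 of the 47 genes, 4.26%, against 2.77% of all genes. Ugt2b35 had an amplitude of 0.25 ± 0.04, or 1.41-fold between peak and trough, and peaked first at 12.9 h (adjusted p = 0.0103). Ugt2b5 had an amplitude of 0.30 ± 0.07 and peaked first at 13.6 h (adjusted p = 0.0334), a call lost without any 1 of 6 arrays (highest adjusted p = 0.0919, without 26 h). Both genes also had the falls described above, which a cosine and a line take up only in part. Cyp2c68 was next by p, with 0.26 ± 0.07 and its first maximum at 14.8 h (adjusted p = 0.0903). Ugt2b34 was not called (0.11, adjusted p = 0.108), but its other kept probe set was (0.13, adjusted p = 0.0326). The largest fitted amplitude among the 47, 0.70 ± 0.30 for Cyp2d26, was not called (adjusted p = 0.318), nor were those of Ahr (0.04 ± 0.05, adjusted p = 0.886) and Nr1i2 (0.17 ± 0.08, adjusted p = 0.429).

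Other genes of xenobiotic handling moved in both directions, with more lower than higher in the later comparisons and more higher in the earlier one. Of 45 listed partners, cofactor enzymes, uptake carriers and regulators, 41 were on the array and 25 were measured. At 44 to 50 h 12 of the 25 were lower than at 36 to 42 h and 2 higher, against 12.7% and 20.5% of all genes. Of the same 25, 10 were lower at 52 to 58 h than at 28 to 34 h and 3 higher, against 15.3% and 21.0%. At 36 to 42 h 3 were lower than at 12 to 18 h and 6 higher, against 12.1% and 14.3%, and 11 lines fell and 5 rose, against 16.4% and 26.3%. Alas1, which starts the heme synthesis that P450 enzymes depend on, fell by 0.49 (SE 0.08, adjusted p = 0.000102) at 44 to 50 h against 36 to 42 h. Cyb5a, an electron donor to P450 enzymes, fell by 0.15 (SE 0.05, adjusted p = 0.0154) and Arnt, the partner of AHR, by 0.16 (SE 0.06, adjusted p = 0.0412). Ugdh, which makes the donor for glucuronidation, differed by −0.17 ± 0.08 (adjusted p = 0.12) and Rxra, the partner of PXR and CAR, by −0.10 ± 0.08 (adjusted p = 0.371). At 52 to 58 h against 28 to 34 h Alas1 and Cyb5a were called lower (−0.48 and −0.23, adjusted p = 8.05e-05 and 0.000655). Arnt (−0.03), Ugdh (−0.15) and Rxra (−0.08) were not called there (adjusted p = 0.767, 0.163 and 0.478). Papss2, which makes the donor for sulfation, fell by 0.69 (SE 0.18, adjusted p = 0.00599) in the same comparison. Between 44 to 50 h and 36 to 42 h Papss2 differed by −0.10 ± 0.18 (adjusted p = 0.707). Tiparp, a target of AHR, had a rising line of 0.54 ± 0.09 (adjusted p = 4.11e-05), while the AHR repressor gene Ahrr and the quinone reductase gene Nqo1 were at 2.17 on all arrays. Dbp and Tef were called 24 h rhythmic, with amplitudes of 1.33 ± 0.07 and 1.01 ± 0.07, and Hlf was at 2.17.

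Promoter windows were found in RefSeq for 40 of the 47 genes and were searched on both strands for 6 short motifs. GCGTG, the core of the AHR and ARNT site, was in 8 of the 40 windows (20.0%), against 32.5% of 27025 promoters. The 8 were those of Abcc4, Aox1, Cyp1b1, Cyp2c68, Cyp4f14, Cyp4f16, Cyp4v3 and Sult1d1. The E-box CACGTG was in 3 (7.5%, against 7.24%) and TGACNNNGC, the core of the antioxidant element, in 4 (10.0%, against 12.5%). Abcc4 held all 3 of these. The amino acid response core TGATGNAA and the D-box forms TTATGTAA and TTACGTAA were in 0 of the 40 windows, against 4.06%, 0.955% and 0.107% of all promoters.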

How the data were processed

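RNA from 24 time points was hybridized to single-colour Affymetrix mouse arrays, 1 per time. The values the authors deposited are log2 levels of probe sets. The submitters' processing notes name GCRMA for them, and its version and settings are not given in the sources used here. GCRMA sets dim probe sets to a floor, and 41.2% of values equal the lowest one, 2.17. Of 45101 probe sets, 64 controls were dropped. GEO's platform annotation gave 1 symbol for 34945 of the rest, several for 932 and none for 9160, and 34741 matched a RefSeq gene. A gene was its probe set of highest mean, kept where log2 5 was reached on at least 6 arrays (18526 probe sets, 9825 genes). The number of arrays limits the precision.

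Models were fitted with limma 3.58.1 in R 4.3.3 over all kept probe sets and 24 arrays: a line with a 24 h cosine and sine, and the means of 6 blocks of 4 arrays. P-values were adjusted over all kept probe sets (Benjamini-Hochberg, threshold 0.05), and counts of genes take 1 probe set each. Lines are given as the change over 46 h. Tests were checked on simulated data whose scatter was independent between arrays. That check does not cover dependence between neighbouring arrays of this series. Genes with full statistics were the receptors, those called rhythmic or the 3 of smallest p, and in each role the 3 of smallest p for the line and the 3 of largest difference between 44 to 50 h and 36 to 42 h; others are named for their values. The genes, lists and tests were chosen with earlier results of these data known. Alternatives covered scaling, filters, the variance prior, drift terms and leaving out arrays.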

Additional observations from a re-analysis of the deposited data

Results flagged for a closer look

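Among the 47 genes, 4 differed over 24 h in opposite directions in the later and the earlier pair of blocks. In each pair every array of the later block lay on the same side of the earlier block. The difference between the 2 changes was not tested. How many of all genes did so was not counted, so whether 4 of 47 is many cannot be said. Cyp2s1 changed by −1.13 at 52 to 58 h against 28 to 34 h and by 0.81 at 36 to 42 h against 12 to 18 h. Sult1c2 changed by −0.37 and 0.82 in the same comparisons, and Ephx1 by −0.14 (not called, adjusted p = 0.117) and 0.36. Cyp4f13 changed by 0.11 (not called, adjusted p = 0.577) and −0.62.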

How the results depend on the processing

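The counts of rhythmic genes moved most: 2 in the model with linear drift, 1 with no filter on dim probe sets, 8 with a quadratic drift, 9 with a spline of 3 df and 10 without the 4 arrays from 12 to 18 h. Sult1a1, Cyp2s1, Cyp2c68, Sult1c2, Abcg2 and Ugt2b36 were called rhythmic under each of the last 3. The share of 2.77% of all genes holds for the model with linear drift only. Shares of all genes under the other settings are not given here, so those counts have no background to be set against. Without the 8 arrays from 44 to 58 h, 13 falling lines were called in place of 23, 15 lines called over all arrays were lost and 7 were gained. The line then turned for Abcc4 (−0.26, adjusted p = 0.287), Ugt2a3 (0.27, adjusted p = 0.494) and Cyp2s1 (1.62, adjusted p = 0.000193). With only the 8 arrays of both blocks in the fit, 7 genes were called lower at 44 to 50 h than at 36 to 42 h, in place of 12, where fewer arrays give less precision.

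Leaving out 1 array at a time gave 1 to 2 rhythmic genes, 20 to 26 falling and 4 to 7 rising lines, 10 to 13 lower and 3 to 4 higher at 44 to 50 h, 7 to 11 lower and 5 to 8 higher at 36 to 42 h against 12 to 18 h, and 22 to 27 lower and 3 to 5 higher at 52 to 58 h against 28 to 34 h. Of 5742 values of named genes under all alternatives, 5576 kept their side of the threshold, 83 lost and 80 gained a call in the same direction. The other 3 changed sign with a call before or after. Changes of sign between values that were both not called are counted among the 5576. No paired analysis was possible because each time point had 1 array and so no replicate numbers to pair by. A block for arrays 24 h apart, which pairs by clock time and not by replicate, gave 25 lower and 4 higher genes at 52 to 58 h. At 36 to 42 h it gave 12 lower and 6 higher, with Fmo5 (adjusted p = 0.0368) and Ugt2b35 (adjusted p = 0.0416) gained. Values at the floor limit what can be said of the 82 genes below the filter.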
